A study of Nematostella vectensis with 30 samples.

Results

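The miRNAs miR-9414 and miR-2041b of the sea anemone Nematostella vectensis were followed through the IP and knockdown (KD) libraries of its AGO proteins. They were chosen by name, because the level of both miRNAs changes between early planula and adult in these data, so the change between stages is given as a description with no test. Of the 255 miRNA arms in the IP table, 3 belong to them, and of the 257 arms in the KD table, 4 do. These are nve-miR-9414-5p and nve-miR-2041b-3p, the guides, and their stars nve-miR-9414-3p and nve-miR-2041b-5p. The star nve-miR-2041b-5p has a line in the KD table only, so its IP levels were not analysed here.

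The study asks which small RNAs each of its AGO paralogs, NveAGO1 and NveAGO2, carries. Small RNAs were sequenced from IPs with antibodies against NveAGO1 or NveAGO2 and from IPs with rabbit IgG as negative control, from whole early planulae, primary polyps and adult males with no other treatment, with 2 libraries per IP and stage and 18 in all. In the KD experiment, zygotes were injected with translation-blocking Morpholino antisense oligonucleotides (MO) against NveAGO1 or NveAGO2, or with a control MO, and small RNAs of whole planulae, 3 days after fertilization, were sequenced in 3 libraries per group, 12 in all. The labels hold 2 control groups, and control 1 was set against AGO1 KD and control 2 against AGO2 KD. This assignment was read from the group names. The labels state neither it nor which MO was injected against each AGO. Each KD library pooled many injected animals, a MO lowers translation without removing the gene, and neither AGO mRNA nor AGO protein is measured in these tables, so the KD itself was not checked here. The libraries of a group are called distinct biological samples by the study. The p-values of the fits below rest on a spread estimated jointly over all groups of a fit. In the fits of IP levels these include the IgG libraries unless stated.

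A miRNA is cut from a hairpin precursor as a duplex. One arm, the guide, stays in an AGO protein and directs it to complementary transcripts, while the other arm, the star, is usually lost. In cnidarians, as in plants, many miRNAs pair with their targets along nearly the whole guide and direct AGO to slice them, whereas most bilaterian miRNAs act through the seed at the guide's 5′ end. The early planula is the swimming larva of Nematostella, and the primary polyp is the settled juvenile after metamorphosis.

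The mature sequences are shown because the guides and stars are read apart in everything that follows. They are RNA sequences from the study's miRNA list, written 5′ to 3′ with the seed, bases 2 to 8, in capitals.
nve-miR-9414-5p, guide: aACUUGAUcuucaaugaacu
nve-miR-9414-3p, star: cUGAUUGAagaucaagcuga
nve-miR-2041b-3p, guide: uUAGAGGAaaauaccccugg
nve-miR-2041b-5p, star: cAGGGGUAuuuuucucuaacgu

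Both guides are 20 bases long. Among the 137 guides assigned in the IP table the median length was 22 bases, and 16 guides (11.68%) had 20 bases. nve-miR-9414-5p starts with A, as 26.28% of guides did, and nve-miR-2041b-3p starts with U, as 59.85% did. No other guide shares bases 2 to 8 with either of them. In the duplex computed from the printed arms, 14 of 20 bases of nve-miR-9414-5p paired with the star, with bases 1, 2, 16, 18, 19 and 20 free. For nve-miR-2041b-3p 19 of 20 bases paired, and base 20 alone was free.

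Sites that the study predicts for the guides are shown with their pairs and mismatches. The study's prediction kept only sites without gaps and within a maximum score for imperfect pairing. Extensive pairing was thus a condition of the prediction and is not a result. The sites are printed 5′ to 3′ with capitals for bases that form a Watson-Crick pair with the guide, and positions are counted from 1 at the guide's 5′ end.
miR-9414 site in NVE17823: AGUUCAUUGAAGAUCAAGcU
miR-9414 site in NVE17825: AGUUaAUUGAAGAUCAAGcU
miR-2041b site in NVE1344: CCAGuGGUAUUUcCCUCUAA
The site in NVE17823 pairs with 19 of 20 bases of nve-miR-9414-5p and is mismatched at position 2. The site in NVE17825 pairs at 18, with mismatches at positions 2 and 16. The site in NVE1344 pairs with 18 of 20 bases of nve-miR-2041b-3p, with mismatches at positions 8 and 16. These are the sites with the most Watson-Crick pairs. The predicted site of miR-2041b in NVE13566 has 17 such pairs, 2 G:U pairs and 1 mismatch, and that of miR-9414 in NVE13632 has 16, 3 and 1. Transcript levels of these gene models were not analysed here, so the sites are predictions only.

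miRNA counts per library ran from 9948 to 7833947 in the IPs and from 23099 to 70321 in the KD libraries. In the IPs the unit is the count per 1000000 genome-mapped reads (CPM), of which the libraries held 456537 to 13170153, beside the percentage of the library's miRNA counts. Intervals and detection limits cover counting error only. Where all libraries of a group are said to lie above, below or without overlap with another group, this is a description. How many of all arms separate in the same way was not counted. Some libraries stand apart. The first IgG library of primary polyps holds the fewest genome-mapped reads of the IP libraries (456537). Its leading guide is that of the NveAGO2 IPs of its stage. There nve-miR-2024e-3p takes 48.5% of the miRNA counts, against 48.4% and 48.9% in these NveAGO2 IPs. That guide also leads the first IgG library of early planulae (21.2%) and the second of adult males (29.3%). NveAGO1 library 2 of the same stage holds 6194385 miRNA counts, more than the 6153804 reads listed as mapped to the genome.

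nve-miR-9414-5p was among the most abundant guides of the larva and juvenile. In NveAGO2 IPs it stood at 14119 and 36182 CPM in early planulae, 145030 and 78404 in polyps, and 373.8 and 49.6 in adults. Both adult libraries lay far below every planula and polyp library, and the adult libraries themselves differed widely. As a share of miRNA counts the NveAGO2 IPs gave 26.8% and 32.0% in early planulae, 21.8% and 13.2% in polyps, and 0.316% and 0.0492% in adults. It ranked second and first of all guides in the NveAGO2 IPs of early planulae, second in both of primary polyps, and 19 and 50 in adult males. In the second NveAGO2 library of early planulae it exceeded nve-miR-2024e-3p, the leading guide of the other NveAGO2 libraries of larva and polyp, which took 28.9% there.

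In NveAGO1 IPs nve-miR-9414-5p stood at 1643 and 1628 CPM in early planulae, 4443 and 3086 in polyps, and 24.97 and 4.12 in adults. These were 5.78% and 6.16%, 0.449% and 0.307%, and 0.00923% and 0.00242% of miRNA counts. The order of the stages thus depends on the unit. miRNA counts made up far more of the mapped reads in polyps than in early planulae. With NveAGO1 they were 329474 of 11593299 and 271198 of 10261319 in planulae, and 3248311 of 3280430 in polyp library 1. With NveAGO2 they were 552836 of 10489820 and 531494 of 4705227 in planulae. In NveAGO2 polyp libraries they were 3231094 of 4863197 and 7833947 of 13170153. CPM of all miRNAs together was thus higher in polyps. On genome-mapped reads the primary polyp was highest in both IPs (4.44-fold over the early planula with NveAGO2 and 2.30-fold with NveAGO1), whereas as a share of miRNA counts the early planula was highest. From primary polyp to adult male the log2 CPM changed by -9.04 with NveAGO2 and by -8.02 with NveAGO1. The libraries of neighbouring stages did not overlap in either IP on either scale. The fade from polyp to adult stood on both scales, and a fade from planula to polyp stood only on the share of miRNA counts. These are whole animals, so fewer cells with the miRNA and less miRNA per cell cannot be told apart. The levels come from IPs and may also depend on AGO amount and IP recovery at each stage, which are not measured in these tables. The adults were males only, so sex and stage cannot be told apart in the fall to the adult.

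nve-miR-2041b-3p was much rarer, and the order of its stage means was the same. In NveAGO2 IPs it stood at 175.3 and 452.5 CPM in early planulae, 481.8 and 403.3 in polyps, and 6.43 and 6.14 in adults. The planula and polyp libraries overlapped on this scale, and without the first planula library the sign of their difference turned (-0.03 on the log2 scale, against 0.50 with both). As a share of miRNA counts it was 0.333% and 0.401% in early planulae, 0.0725% and 0.0678% in polyps, and 0.00543% and 0.00610% in adults, with no overlap. In NveAGO1 IPs it stood at 70.0 and 78.6 CPM, 167.4 and 140.6 CPM, and 2.75 and 1.87 CPM in the order of the stages. Its rank among guides in NveAGO2 IPs went from 13 and 12 to 23 and 25 and to 86 and 82. Its counts in the adult AGO libraries were 10 to 30 per library, so the adult level is known only coarsely.

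**Figure D1:**
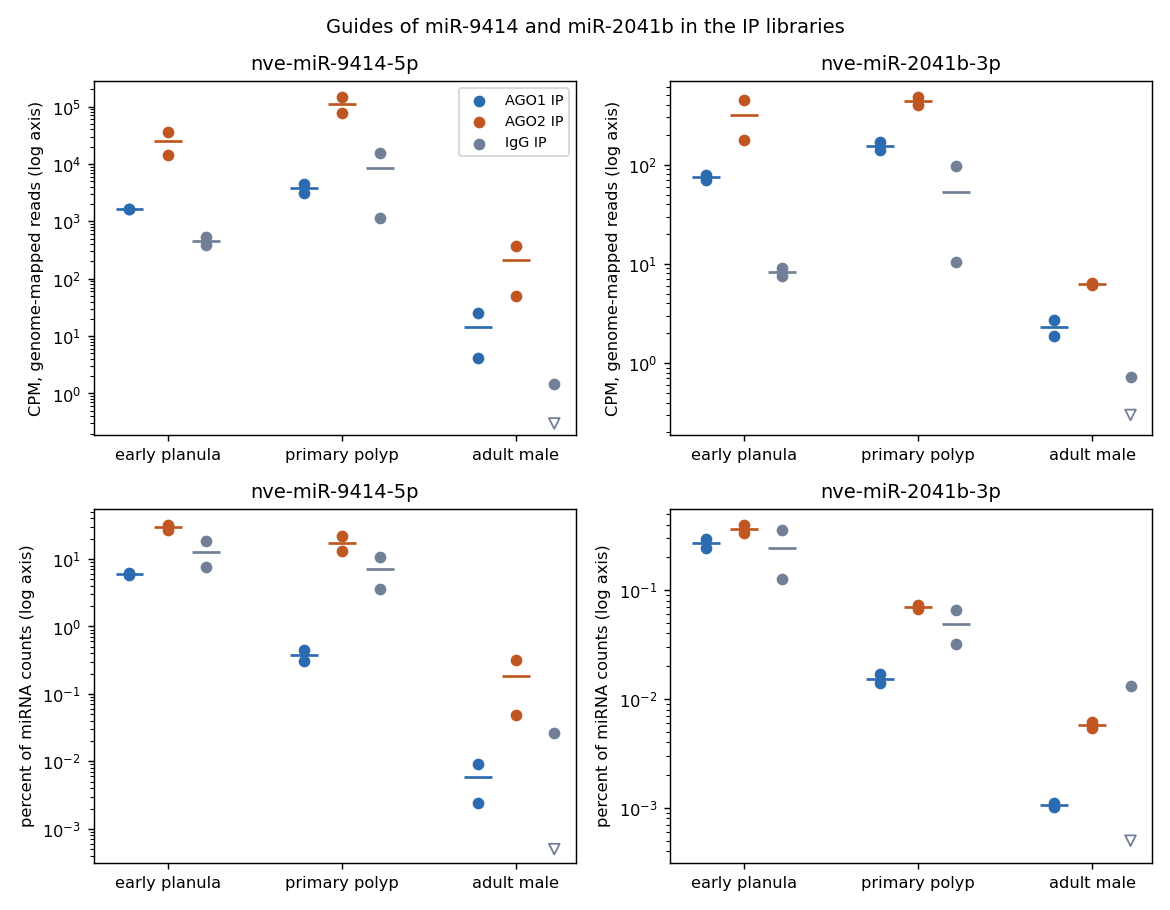
Levels of the guides nve-miR-9414-5p (left) and nve-miR-2041b-3p (right) in each IP library, in CPM (top) and in percent of miRNA counts (bottom), on log axes. Points are libraries, horizontal lines are means of 2 libraries, and open triangles at the foot mark a library with 0 counts. Both guides were lowest in adult males in either AGO IP, and the order of early planula and primary polyp differs between the top and bottom rows.

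The star nve-miR-9414-3p followed its guide at a far lower level. In NveAGO2 IPs it stood at 137.5 and 291.0 CPM in early planulae, 2007 and 937.3 in polyps, and 2.97 and 0.614 in adults. In NveAGO1 IPs it did not exceed 9.15 CPM in any library, and the second adult library held none of its reads.

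NveAGO2 and NveAGO1 IPs were compared within a stage to see in which IP each miRNA stood higher. The IPs used different antibodies, and neither the amount of each AGO nor its recovery is measured in these tables. The comparison thus gives relative levels between IPs, and not how a miRNA is divided between the AGOs in the animal. nve-miR-9414-5p was higher with NveAGO2 at every stage, and both NveAGO2 libraries lay above both NveAGO1 libraries each time. edgeR's quasi-likelihood test over 196 arms, adjusted by Benjamini-Hochberg, gave a log2 fold change of 3.94 (SE 1.09, adjusted p = 0.00359) in early planulae. In primary polyps it gave 4.89 (SE 1.14, adjusted p by edgeR = 0.000425) and in adult males 3.85 (SE 1.09, adjusted p by edgeR = 0.00404). By this test 37.2%, 48.5% and 30.1% of all arms were higher with NveAGO2 in the order of the stages (larva, polyp, adult), with medians over all arms of 1.96, 2.39 and 1.22. nve-miR-9414-5p lay above these medians at each stage. Of the summed mean CPM of nve-miR-9414-5p in the AGO IPs, 93.9%, 96.7% and 93.6% lay in NveAGO2 IPs in the 3 stages. These shares were 83.1%, 97.9% and 96.9% on the sum of miRNA counts and 81.3%, 89.4% and 90.0% with TMM scaling. Between single adult libraries the share ran from 66.5% to 98.9% on genome-mapped reads.

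The call in primary polyps held without any single library. In early planulae it was lost without the first NveAGO1 library (3.95, adjusted p by edgeR = 0.0514) and without the second NveAGO2 library (3.11, adjusted p by edgeR = 0.0579). In adult males it was lost without the second NveAGO1 library (3.08, adjusted p by edgeR = 0.103) and without the first NveAGO2 library (1.76, adjusted p by edgeR = 0.203).

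The star of miR-9414 was also higher with NveAGO2. nve-miR-9414-3p gave log2 fold changes of 5.35 (SE 1.24, adjusted p by edgeR = 0.00130) in early planulae and 7.67 (SE 1.38, adjusted p by edgeR = 5.19e-05) in primary polyps. In adult males 15 counts in the NveAGO2 libraries faced 2 in the NveAGO1 libraries, a ratio of pooled CPM of 11.8 with a counting interval of 2.75 to 106. That adult call (adjusted p by edgeR = 0.0405) was lost without the first NveAGO1 library (adjusted p by edgeR = 0.0712), the second NveAGO1 library (0.215) or the first NveAGO2 library (0.371).

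nve-miR-2041b-3p was not called at any stage. Each NveAGO2 library lay above both NveAGO1 libraries of its stage, a separation that was not counted over all arms. The log2 fold change was 2.08 (SE 1.01, adjusted p by edgeR = 0.0839) in early planulae. In primary polyps it was 1.52 (SE 0.99, adjusted p by edgeR = 0.171), and in adult males 1.43 (SE 1.04, adjusted p by edgeR = 0.255). These values lie close to the medians over all arms given above for early planulae and adult males, and under that for primary polyps. Of the summed mean CPM of nve-miR-2041b-3p, 80.9%, 74.2% and 73.1% lay in NveAGO2 IPs. These shares were 57.4%, 82.0% and 84.5% on the sum of miRNA counts and 54.1%, 45.2% and 63.8% with TMM scaling. The outcome of the test depended on the scale and the tool, as given in the closing section. It also depended on whether the IgG libraries entered the estimated spread. Fitted on the 12 AGO libraries alone, nve-miR-2041b-3p passed in early planulae (SE 0.64, adjusted p by edgeR = 0.00986). It also passed in primary polyps (adjusted p by edgeR = 0.0374) and not in adult males (0.0827).

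Whether the preference of an arm for NveAGO2 differed between stages was tested as an interaction of AGO and stage. None of the 3 arms passed (edgeR F test, adjusted p = 0.872 for nve-miR-9414-5p, 0.353 for nve-miR-9414-3p and 0.964 for nve-miR-2041b-3p), and 3.57% of all arms did. On the sum of miRNA counts as library size the adjusted p became 0.0167 for nve-miR-9414-5p and 0.00326 for nve-miR-9414-3p, on a scale where 48.0% of all arms passed.

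The scale matters for the other results as well. Over all arms, the NveAGO2 to NveAGO1 comparison on genome-mapped reads gave 73 higher and 21 lower arms in early planulae, 95 and 31 in polyps and 59 and 24 in adults. On the sum of miRNA counts it gave 42 and 45, 120 and 31, and 95 and 19 in the same order. TMM scaling gave 44 and 46, 52 and 59, and 63 and 45. By the size factors that DESeq2 estimates itself, the splits were 44 to 43, 42 to 59 and 27 to 73. nve-miR-9414-5p stayed higher with NveAGO2 and called at every stage on the first 3 of these scales, at 2.30, 5.53 and 4.95 on the sum of miRNA counts and 2.12, 3.07 and 3.17 with TMM in the order of the stages. With DESeq2's own size factors its adult call was lost (1.22, adjusted p by DESeq2 = 0.226).

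Against the IgG control, measured the same way, nve-miR-9414-5p in early planulae had 382.6 and 543.6 CPM with IgG, and NveAGO2 gave a log2 fold change of 5.76 (SE 1.19, adjusted p by edgeR = 0.000176). nve-miR-2041b-3p had 7.52 and 9.13 CPM with IgG and a log2 fold change of 5.23 (SE 1.17, adjusted p by edgeR = 0.000352). nve-miR-9414-3p had 2.07 and 5.37 CPM with IgG and a log2 fold change of 5.85 (SE 1.29, adjusted p by edgeR = 0.000298). Of all arms, 57.7% were higher with NveAGO2 than with IgG at this stage.

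In primary polyps the IgG libraries were far apart, with 15764 and 1158 CPM of nve-miR-9414-5p. Both lay below the NveAGO2 libraries, and the NveAGO1 libraries, at 4443 and 3086 CPM, fell between them. The log2 fold change of NveAGO2 over IgG was 3.72 (SE 1.08, adjusted p by edgeR = 0.0144) for nve-miR-9414-5p, 3.75 (SE 1.15, adjusted p by edgeR = 0.0165) for its star and 3.09 (SE 1.07, adjusted p by edgeR = 0.0212) for nve-miR-2041b-3p, and 59.2% of arms were higher. Without the second IgG library these calls were lost (2.83, 2.82 and 2.20, adjusted p by edgeR = 0.191, 0.191 and 0.215). Without the first NveAGO2 library the star (3.10, adjusted p by edgeR = 0.0510) and nve-miR-2041b-3p (2.95, adjusted p by edgeR = 0.0514) lost theirs, as nve-miR-2041b-3p did without the second (3.21, adjusted p by edgeR = 0.0614).

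In adult males the IgG libraries held 6 and 0 counts of nve-miR-9414-5p, the count of 0 allowing a level of up to 1.56 CPM. Against 1754 counts with NveAGO2 this gave a log2 fold change of 7.89 (SE 1.37, adjusted p by edgeR = 8.51e-05), and the call held without each library in turn. The value was 5.79 without the first NveAGO2 library. Without the first IgG library, which leaves the IgG group at 0 counts, the fitted 13.29 is no bound. At this stage 76.5% of arms were higher with NveAGO2 than with IgG. For nve-miR-2041b-3p 56 counts faced 3, a ratio of pooled CPM of 12.6 with a counting interval of 4.10 to 63.0 (adjusted p by edgeR = 0.00919, and 0.0758 without the second IgG library). The star nve-miR-9414-3p had 15 counts with NveAGO2 and 0 with IgG. Its pooled CPM with NveAGO2 was 3.38-fold the floor of 3 counts over the IgG group. The counting interval of the ratio to IgG started at 2.42. Its call (adjusted p by edgeR = 0.0150) was lost without either IgG library (0.133 and 0.0590) and without the first NveAGO2 library (0.110).

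NveAGO1 was set against IgG in the same fit. In early planulae nve-miR-2041b-3p was higher with NveAGO1, by a log2 fold change of 3.16 (SE 1.07, adjusted p by edgeR = 0.0204), beside 28.6% of all arms. Without any 1 of the 4 libraries this call was lost (3.02 to 3.30, adjusted p by edgeR from 0.0563 to 0.124). nve-miR-9414-5p stood at 1.82 (SE 0.999, adjusted p by edgeR = 0.159) and its star at 0.50 (SE 1.08, adjusted p by edgeR = 0.809), neither past the threshold.

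In primary polyps nve-miR-9414-3p was lower with NveAGO1 than with IgG, by -3.92 (SE 1.18, adjusted p by edgeR = 0.0113), where 7.14% of all arms were lower and 21.9% higher. This rests on the first IgG library, without which it was -0.92 (adjusted p by edgeR = 0.481), and the call was also lost without either NveAGO1 library (-4.34 and -3.58, adjusted p by edgeR = 0.0723 and 0.129). nve-miR-9414-5p stood at -1.17 (SE 0.98, adjusted p by edgeR = 0.399), and at 1.70 without the first IgG library, and nve-miR-2041b-3p at 1.57 (SE 1.01, adjusted p by edgeR = 0.253), and at 3.87 (adjusted p by edgeR = 0.00988) without that library.

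In adult males nve-miR-9414-5p was higher with NveAGO1 than with IgG, by 4.04 (SE 1.21, adjusted p by edgeR = 0.00501), beside 51.5% of all arms. The call was lost without the first NveAGO1 library (2.22, adjusted p by edgeR = 0.212) and without the second IgG library (3.30, adjusted p by edgeR = 0.0857). nve-miR-2041b-3p stood at 2.31 (SE 1.30, adjusted p by edgeR = 0.125), and the star had 2 counts with NveAGO1 and 0 with IgG, for which no fold is given.

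All of these IgG comparisons rest on genome-mapped reads. On the sum of miRNA counts the split of arms higher and lower with NveAGO2 went from 113 and 6 to 1 and 34 in the planula, from 116 and 1 to 0 and 9 in the polyp and from 150 and 0 to 4 and 10 in the adult (edgeR). The 0 in the polyp became 4 arms at an unadjusted p under 0.05, and DESeq2 with its own size factors called 0 there as well. On that scale nve-miR-9414-5p stood at 1.19 (adjusted p by edgeR = 0.318) in the planula and 1.28 (0.525) in the polyp, and kept its call in the adult (3.46, adjusted p by edgeR = 0.00862). The calls of nve-miR-2041b-3p (planula) and nve-miR-9414-5p (adult) as higher with NveAGO1 than with IgG were both lost on that scale (0.19 and -1.49, adjusted p by edgeR = 0.942 and 0.417). The lower star with NveAGO1 in polyps was still called there (-6.99, adjusted p by edgeR = 1.42e-07), beside a median of -1.38 over all arms.

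The star share of miR-9414 was compared between NveAGO1 and NveAGO2 IPs, and with all libraries the difference passed in primary polyps only. The star with NveAGO1 was not called higher than with IgG in early planulae or primary polyps. In early planulae the star was 0.173% and 0.465% of the counts of both arms with NveAGO1 and 0.964% and 0.798% with NveAGO2. In primary polyps it was 0.205% and 0.173% with NveAGO1 and 1.37% and 1.18% with NveAGO2. The NveAGO1 libraries lay below the NveAGO2 libraries at both stages. In a fit of both arms with the library as a block, which takes out the scale of the library, the star to guide ratio was lower with NveAGO1 by a log2 difference of -2.76 (SE 0.70, adjusted p by edgeR = 0.000328) in primary polyps. In early planulae the difference was -1.60 (SE 0.70, adjusted p by edgeR = 0.0645) and did not pass, although without the second NveAGO1 library it did (-2.34, adjusted p by edgeR = 0.01003), while without the first it was -0.92 (adjusted p by edgeR = 0.491). Among 88 miRNAs, 26.1% had a lower star share with NveAGO1 in primary polyps and 19.3% in early planulae.

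In adult males the counts of miR-9414 were too low for this comparison. The first NveAGO1 library held 2 star counts beside 218 guide counts, and the second held 0 of 22, which allows a star share of up to 13.6%. The NveAGO2 libraries held 12 beside 1512 and 3 beside 242. The log2 difference was -0.01 (SE 1.47, adjusted p by edgeR = 1), at a stage where 19.3% of miRNAs were lower with NveAGO1. The IgG libraries of primary polyps had star shares of 1.30% and 1.17%, near those of NveAGO2, and those of early planulae 0.538% and 0.978%. Pooled over its libraries, miR-9414 had a star share of 0.252% with NveAGO1, where 58 of 90 miRNAs had a higher one, and of 1.20% with NveAGO2, where 60 of 105 did.

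KD of NveAGO1 was set against its control to see whether the level of each arm depends on this protein. KD levels are given per 1000 counts of the mean of 4 synthetic spike-in RNAs, which were added to the total RNA. nve-miR-9414-5p stood at 169.2, 114.7 and 124.7 in AGO1 KD and at 75.4, 49.4 and 64.8 in control 1, with no overlap. The log2 fold change was 1.11 (SE 0.37, adjusted p by edgeR = 0.0122), a 2.15-fold rise. Its star nve-miR-9414-3p rose by 1.76 (SE 0.49, adjusted p by edgeR = 0.00366), from 0.651, 0.609 and 0.748 to 3.50, 1.66 and 1.74, also without overlap. Of the 61 arms tested, 42.6% were higher in AGO1 KD, with a median of 0.82 over all arms, so nve-miR-9414-5p lay 0.28 above that median and its star 0.94 above it.

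The call of nve-miR-9414-5p was lost without the first AGO1 KD library (0.92, adjusted p by edgeR = 0.0761) or without the second library of control 1 (0.96, adjusted p by edgeR = 0.0709). It also rests on the spike-in scale. As a share of miRNA counts it was 9.20%, 9.45% and 8.28% in AGO1 KD and 9.99%, 7.66% and 8.05% in control 1, which overlap, with a log2 fold change of 0.07 (adjusted p by edgeR = 0.851). On that scale the median over all arms was -0.13, and the split of higher and lower arms went from 26 and 6 to 9 and 13. The star gave 0.69 on that scale and 0.79 with TMM (adjusted p by edgeR = 0.105 and 0.0883).

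The arms of miR-2041b were not called in AGO1 KD. nve-miR-2041b-3p stood at 4.84, 3.79 and 3.96 in AGO1 KD and at 3.15, 3.06 and 2.23 in control 1, which do not overlap, at a log2 fold change of 0.57 (SE 0.41, adjusted p by edgeR = 0.229). Its star nve-miR-2041b-5p stood at 3.04, 2.63 and 2.53 against 2.63, 2.63 and 1.496, at 0.28 (SE 0.41, adjusted p by edgeR = 0.574). Both values lay under the median over all arms, and both turned negative on the sum of miRNA counts (-0.48 and -0.77) and with TMM (-0.38 and -0.68).

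In AGO2 KD nve-miR-9414-5p stood at 39.5, 25.4 and 25.1 per 1000 spike-in counts, against 71.5, 51.9 and 40.2 in control 2. Every AGO2 KD library lay below every control 2 library. The log2 fold change was -0.86 (SE 0.36, adjusted p by edgeR = 0.0655), which did not pass. With the replicate number as a block it was -0.86 (SE 0.30, adjusted p by edgeR = 0.0157) and passed, as it did without the third library of control 2 (-1.04, adjusted p by edgeR = 0.0233). Of all arms, 21.3% were lower in AGO2 KD, with a median of -0.33. As a share of miRNA counts the guide was 7.06%, 4.81% and 4.54% in AGO2 KD and 5.42%, 6.47% and 6.51% in control 2, at a log2 fold change of -0.16 (adjusted p by edgeR = 0.518). The split over all arms went from 5 higher and 13 lower to 19 and 10 on that scale, where the median was 0.43.

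The other 3 arms gave small values in AGO2 KD. nve-miR-9414-3p stood at 0.528, 0.526 and 0.376 against 1.07, 0.409 and 0.377 in control 2 (log2 fold change -0.33, SE 0.51, adjusted p by edgeR = 0.662). For nve-miR-2041b-3p the levels were 2.75, 3.47 and 1.59 against 4.10, 2.82 and 1.98 (-0.18, SE 0.41, adjusted p by edgeR = 0.755). For nve-miR-2041b-5p they were 2.69, 2.13 and 1.45 against 2.26, 2.17 and 1.79 (0.01, SE 0.41, adjusted p by edgeR = 0.985). The groups overlapped for each of the 3.

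**Figure D2:**
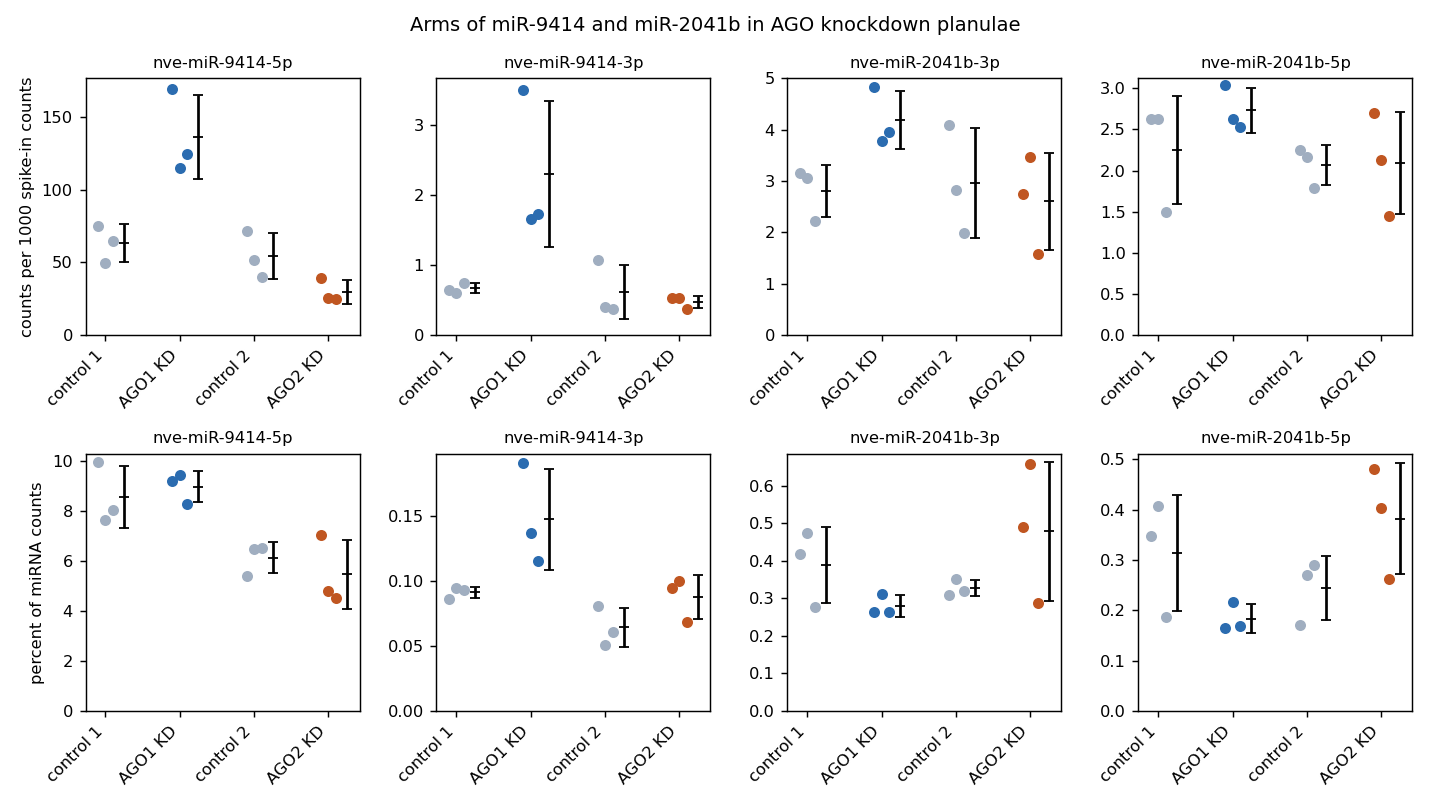
Levels of the 4 arms in KD planulae, per 1000 spike-in counts (top) and in percent of miRNA counts (bottom). Points are libraries (3 per group) and black bars are mean ± SD. In the top row both arms of miR-9414 lie higher in AGO1 KD than in control 1 without overlap, while in the bottom row nve-miR-9414-5p of AGO1 KD and control 1 overlap.

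The change in AGO1 KD was then set against that in AGO2 KD. The changes of nve-miR-9414-5p differed by 1.97 (SE 0.52, adjusted p by edgeR = 0.00142) and those of nve-miR-9414-3p by 2.09 (SE 0.70, adjusted p by edgeR = 0.0108), with AGO1 KD the higher. For nve-miR-2041b-3p and nve-miR-2041b-5p the differences were 0.76 (SE 0.58, adjusted p by edgeR = 0.303) and 0.26 (SE 0.59, adjusted p by edgeR = 0.749). Of all arms 41.0% passed in this direction, with a median of 1.07, and on the sum of miRNA counts the differences for the arms of miR-9414 were 0.23 and 0.25 (adjusted p by edgeR = 0.489 and 0.614).

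**Figure D3:**
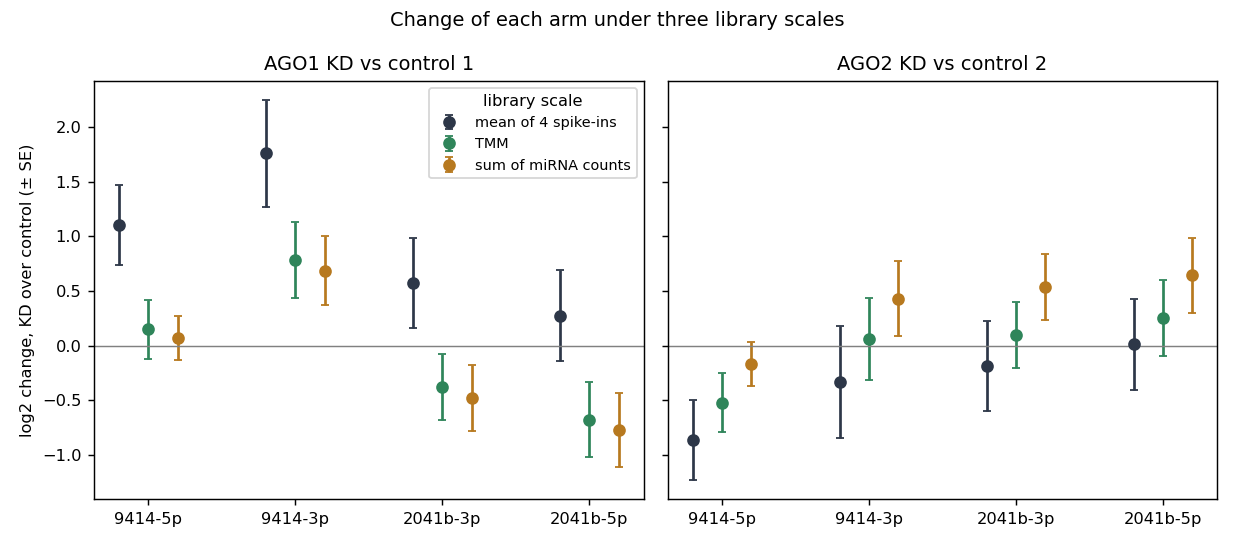
Log2 change of each arm in AGO1 KD (left) and AGO2 KD (right) against its control, with the library size taken as the mean of 4 spike-ins, by TMM or as the sum of miRNA counts. Points are fitted values and bars are ± SE. In AGO1 KD nve-miR-9414-5p goes from 1.11 on spike-ins to 0.07 on the sum of miRNA counts, and the arms of miR-2041b change sign.

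Both guides are among the 58 that the study lists for NveAGO2 and not also for NveAGO1, a list drawn from the same IP libraries. The 2 guides that stand on both of its lists were left out here. Of the 30 members of that list tested in the KDs, 13 rose and 0 fell in AGO1 KD by edgeR (0 fell at an unadjusted p under 0.05 or by DESeq2). Over all 61 arms tested, 26 rose and 6 fell. The medians were 1.06 for the list and 0.82 over all arms. On the sum of miRNA counts 4 of the list rose and 4 fell, with a median of 0.03, beside 9 and 13 of all arms. In AGO2 KD 2 of the list rose and 4 fell, beside 5 and 13 of all arms. The medians there were -0.15 for the list and -0.33 over all arms. On the sum of miRNA counts 9 of the list rose and 2 fell, beside 19 and 10 of all arms. Of the 11 tested members of the list of 38 guides for NveAGO1 alone, 2 rose and 5 fell in AGO1 KD, with a median of -1.0003, and 1 rose and 5 fell in AGO2 KD, with a median of -0.83. Of the 10 guides listed without preference that have an arm in the tables, 2 were tested, and both rose in AGO1 KD. In AGO2 KD 0 of them passed by edgeR or by DESeq2, and 1 was lower at an unadjusted p under 0.05.

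The arms of miR-2041b were far more even than those of miR-9414. In the 6 control libraries pooled, nve-miR-2041b-5p took 43.8% of the counts of both arms, the highest star share among 27 miRNAs with at least 100 counts, whose median was 5.99%. miR-9414 had 1.03%, with 18 of the 27 higher. The 5p share of miR-2041b was 45.4%, 46.2% and 40.1% in control 1, 38.6%, 40.9% and 38.9% in AGO1 KD, 35.5%, 43.5% and 47.5% in control 2, and 49.5%, 38.0% and 47.7% in AGO2 KD. The star to guide ratio of miR-2041b changed by -0.27 (SE 0.33, adjusted p by edgeR = 0.577) in AGO1 KD and by 0.17 (SE 0.33, adjusted p by edgeR = 0.761) in AGO2 KD. Star reads of miR-2041b in the IPs were not analysed here, so which AGO holds this arm is not shown by these counts.

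The star share of miR-9414 was 2.03%, 1.43% and 1.37% in AGO1 KD and 0.856%, 1.22% and 1.14% in control 1. These do not overlap, but the log2 change of the star to guide ratio, 0.59 (SE 0.36, adjusted p by edgeR = 0.199), did not pass, and the exact two-sided permutation test gave p = 0.1, the smallest that 3 against 3 libraries allow. In AGO2 KD the share was 1.32%, 2.03% and 1.48%, against 1.47%, 0.782% and 0.930% in control 2 (0.61, SE 0.41, adjusted p by edgeR = 0.311). Among 32 miRNAs, 28.1% had a higher star share in AGO1 KD and 12.5% in AGO2 KD. IP and KD libraries were made and counted in different ways, so star shares are compared within each experiment only.

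**Figure D4:**
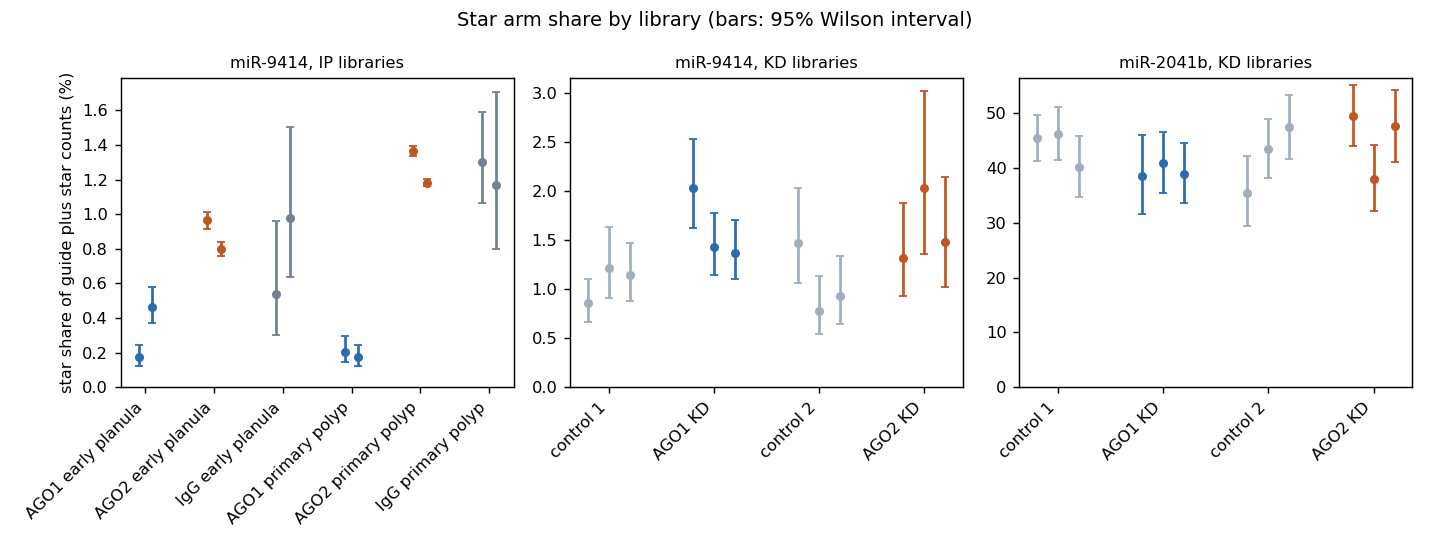
Star share, in percent of the counts of both arms, of miR-9414 in the IPs of early planulae and primary polyps (left), of miR-9414 in the KD libraries (middle) and of miR-2041b in the KD libraries (right). Points are libraries and bars are 95% Wilson intervals of the counts. With NveAGO1 the share of miR-9414 is 0.173% to 0.465%, below every NveAGO2 library, and the share of miR-2041b stays between 35.5% and 49.5%.

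The guides whose profile over the 12 AGO IP libraries was most like that of a member were found by the root mean square (RMS) difference of log2(CPM + 1), each guide centred on its own mean. For nve-miR-9414-5p the nearest of 132 guides was nve-miR-2047-3p, at an RMS of 1.32, followed by nve-miR-2041b-3p at 2.02 and a newly annotated guide at 2.14, while the median over guides was 4.32. nve-miR-2047-3p had mean levels of 265.1, 1041 and 2.60 CPM with NveAGO2 and 19.96, 120.8 and 0.229 CPM with NveAGO1 in the order of the stages. For nve-miR-2041b-3p the nearest 3 were newly annotated guides, at 1.16, 1.17 and 1.19, with a median of 2.85 over guides. The second of these is also the newly annotated guide near nve-miR-9414-5p. nve-miR-9414-5p came 22nd from nve-miR-2041b-3p at the same RMS of 2.02, so only the rank differs by direction. Both members were chosen for a change between stages in these same data. That change enters the RMS, so the likeness of the pair is no independent result. All guides of a library share its depth, and the measure is a description.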

How the data were processed

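Small RNA libraries of AGO and IgG IPs (18) and of AGO KD planulae (12) were analysed from the raw count tables that the authors deposited. The authors trimmed the reads with cutadapt, whose version no source used here gives, and counted reads on each miRNA arm with the quantifier of mirDeep2, by default settings for the IPs and without mismatches for the KDs. The deposited KD table also holds, in other lines, an empty line, a repeated header and a spike-in mean, and these 3 lines were left out.

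Arms reaching 10 counts in 2 or more IP libraries (196 arms) or in 3 or more KD libraries (61 arms) were tested with edgeR 4.0.16 (quasi-likelihood F test, 9 and 8 residual degrees of freedom) in R 4.3.3, with Benjamini-Hochberg adjusted p under 0.05 as threshold. Library sizes were the genome-mapped reads listed by the study for the IPs and the mean of 4 spike-ins for the KDs. Of the arms, 3 that repeat another arm in every library were tested once. Star to guide ratios needed at least 5 star counts (88 miRNAs in the IPs) and, in the KDs, 50 guide counts (32 miRNAs). Alternatives covered the scale, DESeq2 1.42.0, filters, spike-in subsets, pooled controls, the replicate block and leaving out each library. The script of the test was checked on simulated counts. Duplexes were computed with ViennaRNA 2.7.2, shares and figures with scipy 1.17.1, numpy 2.4.6, pandas 2.3.3 and matplotlib 3.10.9 under Python 3.11.15.

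The KD fits do not hold the replicate number, which enters only in the block alternative. The study's methods state that the KD and control injections of 1 biological replicate were done on 1 day. That libraries of equal number mark such a replicate is an assumption. Their deviations from the group means correlated at -0.27, 0.33 and 0.10 for AGO1 KD and at -0.23, 0.22 and -0.02 for AGO2 KD.

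The members, the lists and the rule for named guides were chosen with earlier results of these data known. Named are all arms of both miRNAs, the 3 guides nearest in profile to each member guide, guides with the same seed and, for ranks, the leading guide of a group.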

Additional observations from a re-analysis of the deposited data

Results flagged for a closer look

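The results below concern a difference between the knockdowns. The change of nve-miR-9414-5p in AGO1 KD exceeded its change in AGO2 KD by 1.97 on the log2 scale with spike-in library sizes, and that of nve-miR-9414-3p by 2.09, each past the threshold in a test of the difference itself (edgeR adjusted p = 0.00142 and 0.0108). For the guide every AGO1 KD library lay above every control 1 library and every AGO2 KD library below every control 2 library. How many of all arms separate in this way was not counted. In AGO2 KD the nearest libraries were at 39.5 and, in control 2, 40.2 per 1000 spike-in counts. The change in AGO2 KD alone did not pass (edgeR adjusted p = 0.0655). Of the 61 arms tested 41.0% passed in this direction, with a median of 1.07. With the sum of miRNA counts as library size the differences were 0.23 and 0.25, and with TMM 0.67 and 0.73 (edgeR adjusted p = 0.139 and 0.219), none past the threshold. Groups of 2 or 3 libraries are too small for the check for a library that stands apart.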

How the results depend on the processing

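The scale of the libraries was the choice that moved most values. On the sum of miRNA counts the stage difference of primary polyp over early planula turned, to -0.75 (NveAGO2) and -3.98 (NveAGO1) for nve-miR-9414-5p and to -2.39 and -4.14 for nve-miR-2041b-3p. NveAGO2 over NveAGO1 for nve-miR-2041b-3p passed on that scale in primary polyps (2.18) and adult males (2.44), in early planulae with DESeq2 (2.08) and, with the 12 AGO libraries alone, in early planulae (2.08) and primary polyps (1.52). It turned in primary polyps with TMM (-0.28, an NveAGO2 share of 45.2%) and with DESeq2's own size factors (-0.36), and with these in adult males (-1.08), where nve-miR-9414-5p lost its call (1.22). NveAGO2 over IgG lost its call on the sum of miRNA counts in early planulae (1.19 for nve-miR-9414-5p, 0.62 for nve-miR-2041b-3p) and primary polyps (1.28 and 0.51), turned for nve-miR-2041b-3p in adult males (-0.57), and lost it with TMM in primary polyps for nve-miR-9414-5p (2.28) and for nve-miR-2041b-3p at each stage (1.71, 1.47 and 1.11). NveAGO1 over IgG, whose alternatives were chosen after seeing the data, turned on that sum for nve-miR-9414-5p in early planulae (-1.11) and adult males (-1.49), for nve-miR-2041b-3p in primary polyps (-1.68) and adult males (-3.01) and for nve-miR-9414-3p in early planulae (-2.14, and -0.89 with TMM). In AGO1 KD nve-miR-9414-5p lost its call by the miRNA sum (0.0680) and by TMM (0.15). The arms of miR-2041b turned there on both scales, to -0.48 and -0.38 (3p) and -0.77 and -0.68 (5p). In AGO2 KD nve-miR-2041b-3p turned to 0.54 and 0.10 and nve-miR-9414-3p to 0.43 and 0.0597, while nve-miR-2041b-5p, near 0, turned with the geometric mean of spike-ins (-0.0011), methylated spike-ins (-0.0282), the replicate block (-0.0268) and pooled controls (-0.0499). nve-miR-9414-5p passed there with DESeq2 (-0.86), with pooled controls (-0.97) and with the replicate block (-0.86), and the interaction of AGO and stage passed for it on the sum of miRNA counts (0.0167). The cause of these changes was not tested beyond the scale itself.

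In fits with the replicate block 19 of 21 results kept their direction and their side of the threshold. The exceptions are both named above, and for IP libraries, which share only a number, r between NveAGO1 and NveAGO2 libraries of 1 number was -0.20, 0.43 and 0.65 in the order of the stages.

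Leaving out 1 library gave, for NveAGO2 over NveAGO1 of nve-miR-9414-5p, 3.11 to 4.47 in early planulae and 1.76 to 5.67 in adult males, and for its star in adult males 2.03 to 6.34. NveAGO2 over IgG ran in primary polyps from 2.83 to 6.59 (nve-miR-9414-5p), 2.82 to 6.75 (its star) and 2.20 to 5.39 (nve-miR-2041b-3p), and in adult males from 3.07 to 8.23 for nve-miR-2041b-3p and 5.79 to 13.29 for nve-miR-9414-5p, the upper value with IgG at 0 counts. NveAGO1 over IgG ran from -0.37 to 1.33 for nve-miR-9414-3p in early planulae and from -2.07 to 1.70 for nve-miR-9414-5p in primary polyps. In AGO1 KD nve-miR-9414-5p ran from 0.92 to 1.25. In AGO2 KD it ran from -1.11 to -0.62, nve-miR-9414-3p from -0.60 to 0.27, nve-miR-2041b-3p from -0.45 to 0.11 and nve-miR-2041b-5p from -0.21 to 0.22. The star to guide ratio of miR-9414 ran from -2.34 to -0.92 in early planulae and -1.13 to 0.20 in adult males, and that of miR-2041b in AGO2 KD from -0.0214 to 0.37. The NveAGO2 share ran from 89.6% to 95.7% in early planulae and 77.3% to 98.1% in adult males for nve-miR-9414-5p, and 70.2% to 85.9% in early planulae for nve-miR-2041b-3p. The difference of adult male and primary polyp for nve-miR-9414-5p ran from -11.14 to -8.22 (NveAGO2) and -9.83 to -7.24 (NveAGO1), and primary polyp over early planula for nve-miR-2041b-3p from -0.0321 to 1.34 (NveAGO2).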
